A study of Mus musculus with 3 samples.

Results

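The genes described here, most of which encode proteins of the cytosolic ribosome, were taken from single-cell RNA sequencing of whole mouse skin. They were chosen by name: every symbol in the count matrices that begins with Rpl or Rps followed by a digit, together with Rplp0, Rplp1, Rplp2 and Rpsa, without symbols containing -ps and without the Rps6k kinases. The rule found 91 of 26989 genes, and all 91 were listed in each of the 3 libraries. By their names, 54 belong to the large subunit and 37 to the small subunit. Of the 91, 77 are the standard structural genes and 14 are paralogues, retrocopies or non-structural genes that share the naming pattern. In the GENCODE M21 annotation, Rpl6l, Rpl32l, Rps3a2 and Rps3a3 are processed pseudogenes, and Rps4l and Rpl37rt are transcribed processed pseudogenes. The other 85 members are annotated as protein coding. The 77 structural genes held 99.1% of the members' counts in the control library, 99.1% in the UV library and 99.0% in the UV plus vitamin D library.

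The libraries came from C57BL/6 mice that were 9 weeks old. The control skin had no irradiation and received saline, the UV skin was irradiated and received saline, and the third skin was irradiated and received VD, taken to be the vitamin D that the study's title names. Each group had 1 library, so no comparison below carries a test, and a difference between groups cannot be told apart from a difference between libraries. All intervals in square brackets are exact 95% intervals that cover counting error only.

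A cytosolic ribosome consists of a small subunit, which reads the message, and a large subunit, which joins amino acids. Each subunit is built from ribosomal RNA and its own set of proteins, which are assembled in the nucleolus in the process called ribosome biogenesis. Ribosomal protein messages are among the most abundant in growing cells, and many begin with a run of pyrimidines, the terminal oligopyrimidine (TOP) tract, through which growth signals set their translation. In the epidermis, basal keratinocytes divide and anchor to the basement membrane, and their daughters move outward through spinous and granular layers while they stop dividing and build the cornified barrier.

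Sequence around the annotated start of these genes is shown because the TOP tract is the feature that ribosomal protein messages share. Each line gives 30 bases of the gene's own strand from RefSeq on build GRCm38.p6, with base 16 at the annotated start. Capitals mark a run made of a C followed by at least 4 bases that are C or T, beginning within 5 bases of the annotated start. A run whose first C lies further upstream is not marked, even where the run crosses the start. The 8 genes are a selection from the members described below, among them Rplp0, the most abundant member, and Rps27rt, a copy of Rps27. Other members followed below are not shown, among them Rpl39l and Rpl36al without such a run and Rps27l with it. The selection therefore does not represent the share of members with a run.
Rplp0, chr5:115559452-115559481, plus strand: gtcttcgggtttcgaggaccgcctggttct
Rpl41, chr10:128549154-128549183, minus strand: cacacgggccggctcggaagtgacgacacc
Rps18, chr17:33955651-33955680, minus strand: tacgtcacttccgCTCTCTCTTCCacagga
Rps6, chr4:86857353-86857382, minus strand: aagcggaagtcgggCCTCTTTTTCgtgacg
Rpl15, chr14:18270972-18271001, minus strand: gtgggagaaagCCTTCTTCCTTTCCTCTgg
Rpl22l1, chr3:28805493-28805522, plus strand: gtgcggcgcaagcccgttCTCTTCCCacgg
Rps27, chr3:90213634-90213663, minus strand: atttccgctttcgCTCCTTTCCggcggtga
Rps27rt, chr9:114982725-114982754, minus strand: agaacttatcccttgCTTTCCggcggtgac

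A promoter sequence was found for 67 of the 91 members, and 28 of these (41.8%) held such a run on the gene's strand, against 18.6% of the 27025 genes of the table. Longer runs that open further upstream and cross the start were scored as absent, as at Rpl14, Rpl35 and Rpl7a. The same rule was used for all genes, and how far it lowers either share was not tested. A match is a description of the letters in this window. The absence of one, as at Rplp0 and Rpl41, says only that no such run begins within 5 bases of the start. Among structural members the share was 42.1%, and among the paralogues and non-structural members with a promoter sequence it was 40%. Rps27 and its copy Rps27rt share a stretch of 14 bases, ctttccggcggtga in these windows.

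The 3 matrices held 9098, 5502 and 6234 barcodes for control, UV and UV plus vitamin D, and 9078, 5451 and 6199 were kept. Median total counts per cell were 6822.5, 7566 and 9301. Control and UV shared 55 barcodes, control and UV plus vitamin D 66, and UV and UV plus vitamin D 37. The 3 genes for ribosomal RNA or like it that the matrices list took 11.4%, 10.4% and 7.23% of counts, and mitochondrial genes took 2.74%, 2.78% and 2.21%. Cells were clustered without the members and named from marker genes. Keratinocyte-like cells, counted here with the upper follicle-like and dividing cells, made up 8478, 3617 and 5765 of the kept cells. A stressed-like keratinocyte cluster held 742 UV cells against 5 control and 17 vitamin D cells.

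The members took 13.0% of all counts in control, 12.4% in UV and 12.3% in UV plus vitamin D. The middle 50% of cells ranged from 11.5% to 16.3% in control, from 9.00% to 16.4% in UV and from 10.3% to 16.3% in UV plus vitamin D. These ranges over cells describe the spread within a library and are no error of the pooled share. With ribosomal RNA and mitochondrial genes left out of the total, the shares were 15.1%, 14.3% and 13.6%. The share of the small subunit among member counts was 45.6%, 45.3% and 45.2%, so the balance between the subunits' messages was alike in the 3 libraries.

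The most abundant members in all cells, by counts scaled to a library total of 1000000 (CPM), came from both subunits. CPM are not divided by transcript length, so this order is one of counts captured and not of messages per cell. Rplp0, the base of the acidic stalk that recruits translation factors, had 5482, 4664 and 5317 CPM in control, UV and UV plus vitamin D. Rps19, a small-subunit protein mutated in Diamond-Blackfan anaemia, had 4668, 3685 and 4123 CPM. Rplp1, which pairs with Rplp2 on the stalk, had 4332, 3588 and 4083 CPM. These 3 genes were lowest in the UV library. Rps27, a zinc-finger protein of the small subunit, had 3953, 4661 and 3665 CPM, and Rpl41, the shortest ribosomal protein, had 3291, 4245 and 3133 CPM. For Rps27 and Rpl41 the UV library was the highest of the 3. Rpl13 and Rps26 were also among the 8 most abundant members, with 4205 and 3731 CPM in control. The stalk partner Rplp2 had 1444, 1564 and 1414 CPM.

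Across the 91 members, 52, 49 and 49 exceeded 1000 CPM in control, UV and UV plus vitamin D, and 15, 14 and 14 lay under 100 CPM. A few structural members were almost missing from the matrices. Rpl24, a large-subunit protein at the interface with the small subunit, had 87, 34 and 39 counts in whole libraries. The annotation gives 47.0% of its exon bases to an overlapping gene on the same strand, Gm28037. Rpl23a, which lies beside the exit tunnel for the new protein chain, had 1742, 2604 and 3064 counts, and 14 annotated copies carry its name with -ps. Rpl13a had 4035, 3621 and 3822 counts, and 35.4% of its exon bases overlap other genes on its strand. No label or file header says how reads shared with such copies and overlapping genes were counted, so the levels of Rpl24, Rpl23a and Rpl13a are uncertain. The same limit holds for other members with such copies. Among those followed below, Rpl15 and Rps6 have 5 and 4 annotated -ps copies, Rpl10 and Rpl35a 6 each, and Rpl30 and Rpl36 9 each. Rps19 has 14 and Rpl31 24. Outside the rule, the 224 symbols with -ps took 0.0998%, 0.1001% and 0.0742% of counts. Fau, which encodes a small-subunit protein under another name, had 1969, 2177 and 2153 CPM.

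The members' share was highest in the basal-like layer and lowest in the granular-like layer in each of the 3 libraries. In basal-like cells, which formed 1 cluster of 1094, 322 and 472 cells, the members took 15.3%, 17.3% and 16.6% of counts. In spinous-like cells they took 13.4%, 13.1% and 14.1%. In granular-like cells, made up of clusters 4 and 15, they took 7.22%, 6.01% and 7.20%. The granular-like share was therefore 47.1%, 34.7% and 43.3% of the basal-like share. Within the granular-like cells, cluster 4 had 8.43%, 7.71% and 8.80%, and cluster 15, which was rich in the late cornified envelope genes of the Lce1 group, had 3.19%, 2.95% and 3.10%. The Lce1-rich cluster was thus the lowest of the keratinocyte clusters with at least 50 cells in each library.

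**Figure D1:**
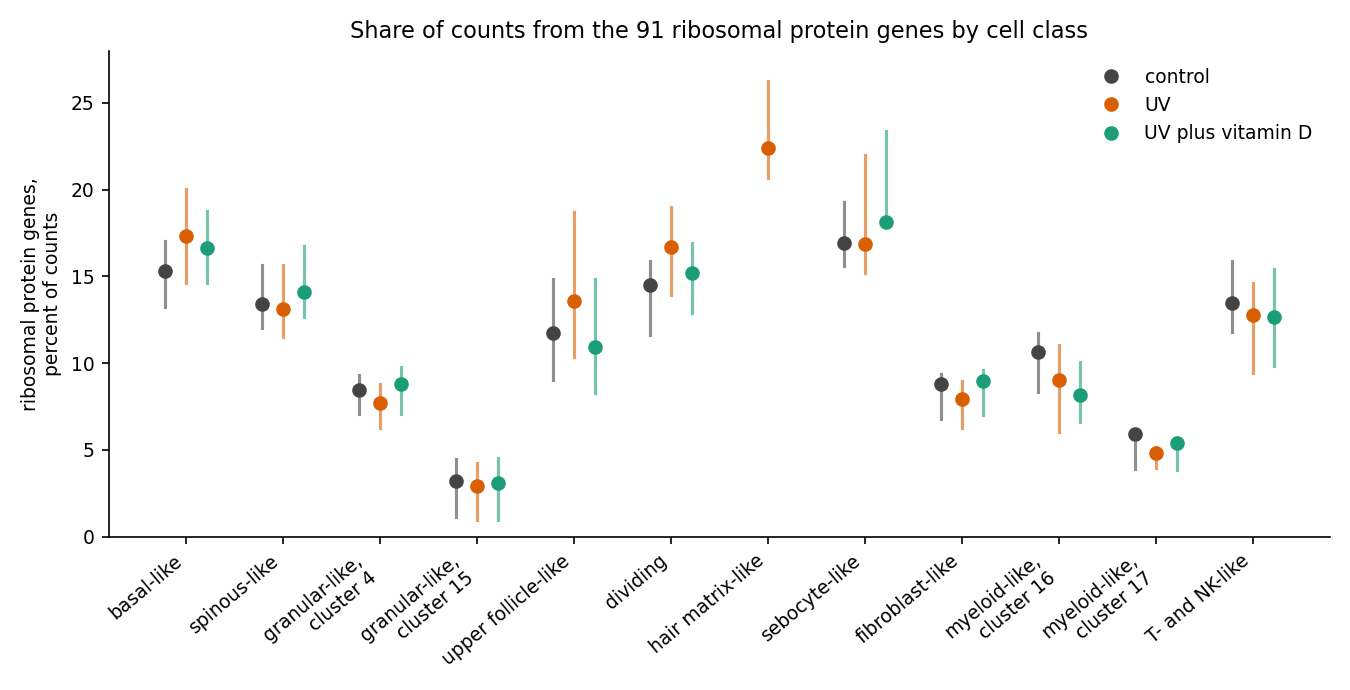
Share of counts from the 91 members, in percent, for 12 cell classes in control, UV and vitamin D libraries. Points are pooled shares and bars span the quartiles over cells. The basal-like class sits at 15.3%, 17.3% and 16.6%, and granular-like cluster 15 at 3.19%, 2.95% and 3.10%.

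For the granular-like class as a whole, a lower share was not a lower median number of member counts per cell. Median total counts per cell were 4308.5, 4604.5 and 4858.5 in basal-like cells and 12658.5, 14488 and 12819 in granular-like cells. The median number of member counts per cell was 642.5, 785 and 807 in basal-like cells and 943, 892 and 890 in granular-like cells. At the class median, granular-like cells therefore held more member counts in a much larger total. These medians join clusters 4 and 15, which are not given apart here. Ribosomal RNA counts moved with the layers too, at 18.1%, 18.5% and 14.03% in basal-like against 6.45%, 4.996% and 4.95% in granular-like cells, and mitochondrial counts were 4.81%, 4.93% and 4.24% against 1.48%, 1.55% and 1.52%. The part of depth, ribosomal RNA and mitochondrial counts in the layer difference was not tested. With the 50 most abundant other genes left out of the total, which include keratins and cornified envelope genes, the basal-like shares were 23.8%, 26.2% and 24.4% and the granular-like shares 11.5%, 9.38% and 11.5%.

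The layer difference was much smaller when keratinocytes were ordered only by the suprabasal keratins. Cells in which Krt1 and Krt10 made up at most 20% of the counts of Krt1, Krt10, Krt5 and Krt14 had member shares of 15.2%, 17.1% and 16.3%. Cells at 95% or more had 12.7%, 11.9% and 12.2%, which is 83.7%, 69.3% and 74.9% of the lowest bin. The share did not fall steadily between these ends, since in UV the bins from 60% to 80% and from 80% to 95% had 10.2% and 10.6%, and with vitamin D 11.8% and 11.6%. That upper bin joins spinous-like and granular-like cells. Clusters 2, 3 and 5, keratinocytes to which the markers gave no layer, had shares between 10.7% and 17.6%.

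Nearly all members took part in the granular-to-basal difference. Of the 85 members with at least 50 counts in the higher class, 81 were at least 20% lower in granular-like cells of the control on the scale of CPM plus 10, against 46.8% of all genes tested there. The other limit, at least 25% higher, is the same fold in the opposite direction, and 2 members passed it, against 30.3% of all genes. In UV, 82 of 85 were lower and 1 higher, against 42.7% and 36.3% of all genes. In UV plus vitamin D, 82 of 85 were lower and 2 higher, against 43.7% and 29.9%. Median log2 ratios of the members, taken on the same scale, were −1.15, −1.55 and −1.29 in control, UV and UV plus vitamin D, against −0.23, −0.09 and −0.18 for all genes. The spinous-like class lay between, with member medians of −0.24, −0.42 and −0.28 against basal-like cells. The subunits differed little, since the small-subunit medians were −1.20, −1.63 and −1.32 and the large-subunit medians −1.14, −1.53 and −1.23. Structural members with and without a marked pyrimidine run were also close. Their medians were −1.19 and −1.22 in control, −1.63 and −1.63 in UV, and −1.34 and −1.35 in UV plus vitamin D. Members whose run opened further upstream count here as without it.

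The members with the lowest ratios were structural proteins of both subunits. Rps18, a protein of the small-subunit head, had 3203, 3995 and 3591 CPM in basal-like cells and 1061, 849 and 1081 CPM in granular-like cells. Granular-like cells therefore had 3.02-fold [2.94, 3.10], 4.70-fold [4.52, 4.90] and 3.32-fold [3.24, 3.41] less. Rpl32 had 3091, 4519 and 3963 CPM in basal-like cells against 1043, 1012 and 1211 CPM. Rpl36a had 1245, 1555 and 1384 CPM against 398, 349 and 368 CPM. In each of these genes the largest gap between the layers was in UV, where the basal-like level was highest and the granular-like level lowest. Rps15 and Rps9 completed the 5 lowest by the mean over libraries.

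The 3 highest members at the other end were Rps4l, annotated as a transcribed processed pseudogene, and the paralogues Rps27l and Rpl36al. Rps4l, a copy of the small-subunit gene Rps4x, had 14.3, 18.8 and 16.2 CPM in basal-like cells and 39.5, 32.0 and 38.7 CPM in granular-like cells. Its counts were small, from 31 in UV basal-like cells to 480 in vitamin D granular-like cells, and the folds were 2.77 [2.16, 3.57], 1.70 [1.14, 2.59] and 2.39 [1.77, 3.30]. Rps27l, a paralogue of Rps27 that is a known p53 target, had 501, 467 and 531 CPM in basal-like cells and 671, 575 and 709.6 CPM in granular-like cells. Rps4l and Rps27l were higher in granular-like cells in each library, opposite to the structural genes. Rpl36al, the autosomal paralogue of Rpl36a, has 24.5% of its exon bases overlapped by Gm49383 on its strand, so its level is uncertain. It had 206, 174 and 189 CPM against 209, 139 and 167 CPM, so it changed little where Rpl36a was more than 3-fold lower. Among structural genes, Rps29, a short zinc-binding protein of the small subunit, had log2 ratios of −0.22, −0.67 and −0.36, and Rplp0 of −0.62, −0.95 and −0.66. Rpl23a in UV (−0.81) and Rpl31 in control (−0.65) also lay more than 0.5 above the member median. Rplp0 was still 3476, 2880.0 and 3441 CPM in granular-like cells, against 5364, 5569 and 5454 CPM in basal-like cells. In all, 6, 9 and 6 members lay more than 0.5 from the member median in control, UV and UV plus vitamin D.

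**Figure D2:**
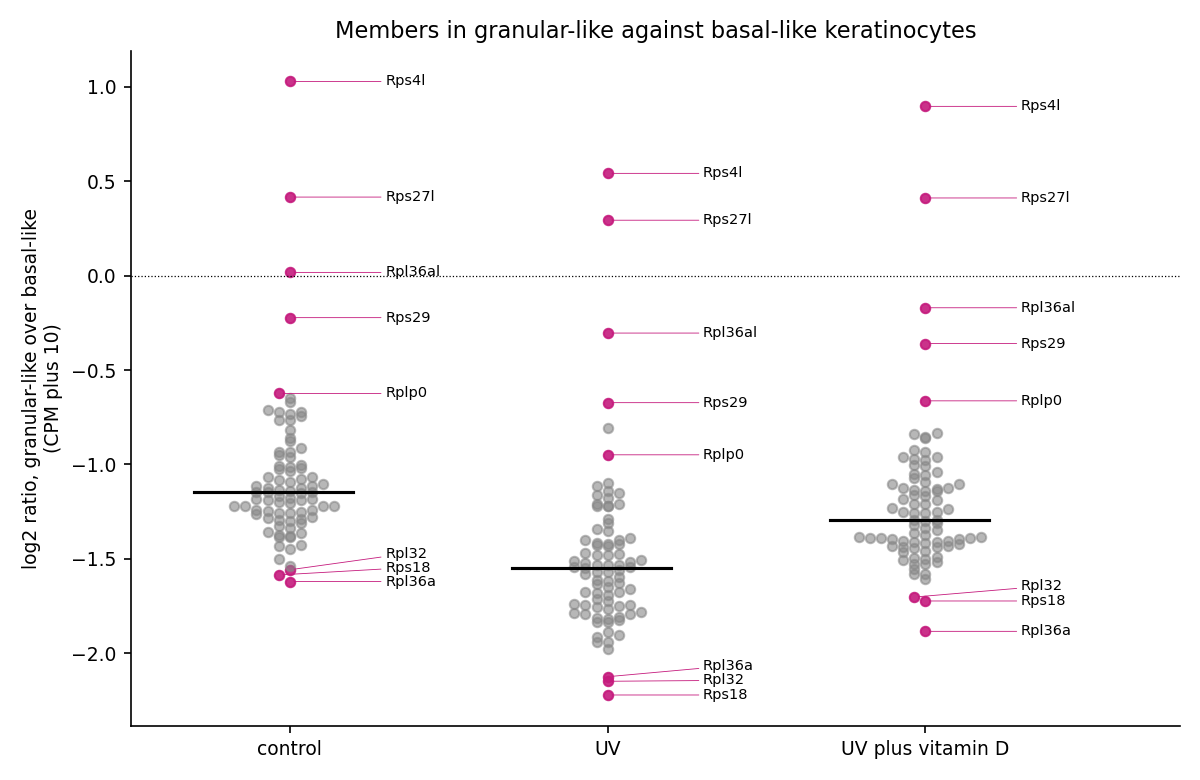
Log2 ratio of CPM plus 10 in granular-like against basal-like cells for each member with at least 50 counts, 1 column per library. Member medians are −1.15, −1.55 and −1.29, and Rps4l and Rps27l are the only members above 0 in all 3 libraries.

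Beyond the epidermal layers, the classes with the highest and lowest shares were epithelial and myeloid. Hair matrix-like cells, found in the UV library only (289 cells), had the highest share of any class, at 22.4%. Sebocyte-like cells had 16.9%, 16.9% and 18.1%, although the vitamin D class held 33 cells, and dividing cells had 14.5%, 16.7% and 15.2%. Upper follicle-like keratinocytes had 11.7%, 13.6% and 10.9%. T- and NK-like cells had 13.4%, 12.8% and 12.7%. Among classes with at least 50 cells, the lowest shares outside the granular-like class were those of fibroblast-like cells, at 8.78%, 7.94% and 8.95%, and of macrophage-, monocyte- and dendritic-like cells, at 6.87%, 7.84% and 5.80%. The myeloid class was a mixture: cluster 16, with 20, 454 and 13 cells, had 10.6%, 9.01% and 8.19%, and cluster 17, with 114, 135 and 76 cells, had 5.92%, 4.79% and 5.38%. Both myeloid clusters were lower in UV than in control, while the class as a whole was higher in UV, where cluster 16 held most of its cells.

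The levels of most structural members followed each other across classes. Over 26 combinations of a class and a library with at least 50 cells, the correlation of a structural member's level with the summed level of the other members had a median r of 0.97, and 68 of the 77 reached 0.9. The closest was Rpl22 (0.99) and the least alike was Rpl24 (0.07), whose few counts are described above. The 14 paralogues and non-structural members had a median r of 0.64, with Rps4l at 0.10, Rps27l at 0.41, Rpl36al at 0.58 and Rpl39l at −0.30. Among structural genes Rps29 (0.60), Rpl23a (0.66) and Rpl15 (0.81) also stood lower. These values are descriptions without a test, since classes of a library share its preparation and depth.

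In all keratinocytes, the members as a group hardly differed between the UV and control libraries. Their share was 13.1% in control and 12.5% in UV, and 12.4% in UV plus vitamin D. Of 89 members whose higher library held 50 counts or more, 6 were at least 25% higher in UV, against 6.99% of all genes tested, and 5 were at least 20% lower, against 8.56%. These shares are near or below the background. The median log2 ratio was −0.05, against −0.03 for all genes, and 35 of 89 ratios were positive. Scaled to the members' own total, the median was 0.0057, so its sign depends on the scaling. The small-subunit median was −0.11 and the large-subunit median −0.03.

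The 6 higher members were Rpl23a, Rpl22l1, Rpl15, Rps6, Rpl35 and Rpl41, of which Rpl41 was no longer past the limit without the stressed-like cluster. Rpl23a had 22.2, 51.4 and 44.9 CPM in control, UV and UV plus vitamin D, which is 2.32-fold [2.17, 2.47] higher in UV than in control, with the uncertainty from its copies stated above. Rpl22l1, the paralogue of the RNA-binding large-subunit protein Rpl22, had 92.2, 179.6 and 139 CPM, 1.95-fold [1.88, 2.01] higher in UV. Rpl15, a large-subunit protein buried among the ribosomal RNA helices, had 439, 689 and 691 CPM, 1.57-fold [1.54, 1.59] higher in UV. For Rpl23a and Rpl15 the irradiated libraries lay close together and above control, while Rpl22l1 was intermediate with vitamin D. Rps6, the small-subunit protein phosphorylated by the S6 kinases, had 134, 191 and 169 CPM, 1.43-fold [1.39, 1.47] higher in UV. Rpl35, at the exit tunnel, had 663, 888 and 789 CPM, and Rpl41 had 3305, 4173 and 3153 CPM. Rpl41 differed from the other 5 in that the vitamin D library was below control.

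The 5 lower members were Rpl7l1, Rpl36al, Rps3a2, Rps19bp1 and Rpl30, of which only Rpl30 is a structural gene. Without the stressed-like cluster Rps19bp1 was no longer past the limit, and Rpl3 and Rpl8 were. Rpl7l1, a relative of Rpl7 that acts in ribosome assembly, had 59.7, 41.8 and 54.1 CPM. Rpl36al had 229, 169 and 199 CPM. Rps3a2, a copy of Rps3a1, had 33.2, 23.2 and 23.0 CPM. Rps19bp1, which encodes a protein that binds Rps19 and SIRT1 and is not part of the ribosome, had 55.6, 40.9 and 50.7 CPM. Rpl7l1, Rpl36al and Rps19bp1 had vitamin D levels between those of the other libraries, and Rps3a2 stayed at its UV level. Rpl30, a large-subunit protein, had 1247, 978 and 1063 CPM.

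UV plus vitamin D against UV compares the irradiated library that received VD with the irradiated library that received saline. None of 88 members was at least 25% higher, against 3.4% of all genes, and 4 were at least 20% lower, against 4.74%. The member median was 0.01 on the log2 scale, against 0.02 for all genes, and 47 of 88 ratios were positive. It was −0.013 without the 50 most abundant other genes in the total, so its sign depends on the scaling too. The 4 lower members were Rps27rt, Rpl41, Rps27 and Rpl22l1. Rps27rt had 41.7, 39.9 and 19.5 CPM in control, UV and UV plus vitamin D, so the vitamin D level was 0.488 [0.453, 0.526] of the UV level. Its parent Rps27 had 3956, 4735 and 3679 CPM. Rps27rt was alike in control and UV, whereas Rps27 was highest in UV and close between the others, so the copy did not follow its parent. Without the stressed-like cluster, an alternative chosen after seeing the data, Rps27rt was the only one of the 4 still past the limit. The log2 ratios of Rpl41, Rps27 and Rpl22l1 were then −0.28, −0.29 and −0.27. The vitamin D level of Rpl22l1 was 0.776 [0.752, 0.801] of its UV level. The 5 highest ratios were those of Rps27l (0.31; 586, 509 and 635 CPM), Rpl7l1 (0.31), Rps19bp1 (0.25), Rpl36al (0.23) and Rpl26 (0.15; 1922, 1626 and 1805 CPM). Rpl6l, a low copy with 5.77, 8.93 and 5.29 CPM, had a ratio of −0.31.

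UV plus vitamin D against control shares a library with each of the comparisons above, so its values are not independent of them. Of 89 members, 4 were at least 25% higher, against 5.25% of all genes, and 2 were at least 20% lower, against 4.8%. The higher members were Rpl23a at 2.02-fold [1.91, 2.15], Rpl15 at 1.57-fold [1.55, 1.60], Rpl22l1 at 1.51-fold [1.47, 1.56] and Rpl10, which joins the large subunit last, at 1.28-fold [1.27, 1.29]. Rpl10 had 1355, 1587 and 1739 CPM in control, UV and UV plus vitamin D, and was highest with vitamin D. The lower members were Rps27rt, at 0.467 [0.438, 0.499] of control, and Rps3a2, at 0.692 [0.649, 0.738]. Rpl8, Rpl32l and Rpl37rt followed, with log2 ratios of −0.25, −0.23 and −0.23. The member median was −0.09, against −0.02 for all genes, and it was −0.020 when scaled to the members' own total.

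**Figure D3:**
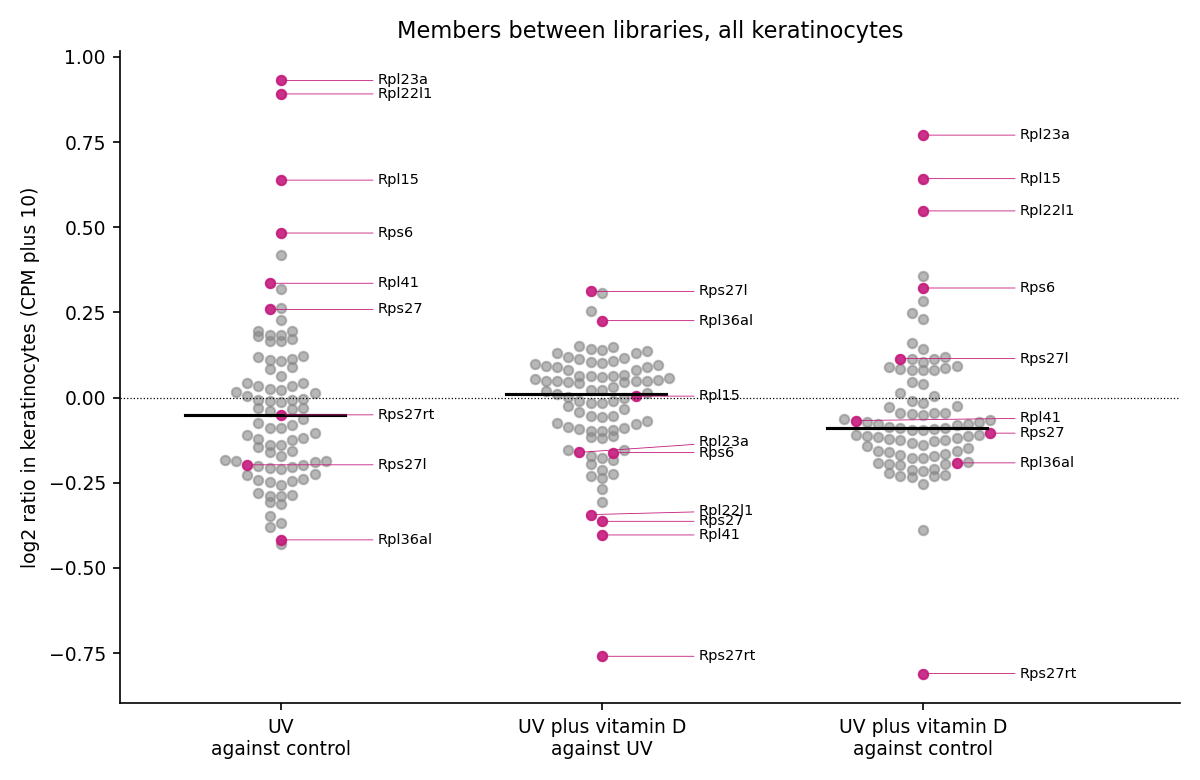
Log2 ratio of CPM plus 10 in keratinocytes for each member with at least 50 counts, in the 3 comparisons of libraries. Medians are −0.05 for irradiated against control, 0.01 for vitamin D against irradiated and −0.09 for vitamin D against control, with Rpl23a, Rpl22l1 and Rpl15 high against control and Rps27rt low in both comparisons of the vitamin D library.

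The basal-like and granular-like layers, both part of the result over all keratinocytes, went in opposite directions. Their part in that even result was not tested. In basal-like cells the member share was higher in UV than in control, at 17.3% against 15.3%, and in granular-like cells it was lower, at 6.01% against 7.22%, as it was within cluster 4 and within cluster 15. Of 85 members tested in basal-like cells, 24 were at least 25% higher in UV, against 10.7% of all genes, and 1 (Rps3a2) was lower, against 14.9%. The median log2 ratio was 0.16, against −0.03 for all genes, and 71 of 85 ratios were positive. In granular-like cells, 35 of 85 members were at least 20% lower in UV, against 26.4% of all genes, and 3 (Rpl23a, Rpl22l1 and Rpl15) were higher, against 7.57%. The median there was −0.27, against −0.17 for all genes. The granular-like class held different mixes of its clusters, with 400, 187 and 620 cells of cluster 4 and 136, 106 and 275 of cluster 15 in control, UV and UV plus vitamin D. Within cluster 4 the UV against control median was −0.14, against −0.06 for all genes, and within cluster 15 it was −0.16, against −0.24 for all genes. The differences within clusters were therefore smaller than in the class, and in cluster 15 no lower than for all genes. In spinous-like cells the median was −0.01. These are values of 1 library per group and the difference between the layers was not tested.

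Single members differed in how far they followed the layers' medians. Rpl32 had 3091 CPM in control and 4519 CPM in UV basal-like cells, but 1043 and 1012 CPM in granular-like cells. Rps6 had 166 CPM in control and 294 CPM in UV basal-like cells, against 68.0 and 86.2 CPM in granular-like cells. Rpl8, a large-subunit core protein, had 563 CPM in control and 382 CPM in UV granular-like cells. Rpl3, close to the peptide-joining centre, had 449 and 296 CPM in the same cells. Of the basal-like and granular-like layers, Rpl32 was thus higher in UV in the basal-like layer only, and Rps6 in both. Outside these layers Rpl32 was also higher in UV in dividing, sebocyte-like, myeloid and T- and NK-like cells. Rpl8 and Rpl3 were among the members with the lowest granular-like ratios.

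With vitamin D, granular-like cells were near control again. Of 85 members, 28 were at least 25% higher than in UV, against 12.1% of all genes, and 1 (Rps27rt) was lower, against 5.45%. The median log2 ratio of vitamin D against UV was 0.28, against 0.09 for all genes, with 80 of 85 ratios positive, and against control it was −0.02. Within cluster 4 the vitamin D against UV median was 0.20, against 0.02 for all genes, and within cluster 15 it was 0.07, against 0.20 for all genes. Rps3a1, which encodes a small-subunit protein, had 588 CPM in UV and 806 CPM with vitamin D. Rpl30 had 706, 482 and 661 CPM in control, UV and UV plus vitamin D, so the vitamin D level lay near that of control. In basal-like cells the median of vitamin D against UV was −0.03 and against control 0.10. Median total counts of granular-like cells were also highest in UV, at 14488 against 12658.5 and 12819, and their part in this result was not tested.

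Other classes gave further directions. In upper follicle-like keratinocytes the member median was 0.21 for UV against control, with 74 positive ratios, and −0.31 for vitamin D against UV, with 2 positive ratios. In dividing cells the medians were 0.21 and −0.12. All genes there had medians of 0.0042 and −0.07 in upper follicle-like and −0.02 and 0.14 in dividing cells. T- and NK-like cells had member medians of −0.06 and −0.0084, against −0.13 and 0.03 for all genes. In fibroblast-like cells the members had −0.12 and 0.20, against 0.12 and −0.03 for all genes. That class joins cluster 14, with 147, 184 and 147 cells in control, UV and UV plus vitamin D, and cluster 21, with 52, 194 and 46. Within cluster 14 the member medians were −0.07 and 0.09, and within cluster 21 the UV against control median was −0.10.

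In the myeloid class the member medians were 0.20 for UV against control and −0.42 for vitamin D against UV, against 0.15 and −0.15 for all genes. The class held different mixes of its clusters, as given above, and their part in these signs was not tested. In cluster 16, with 13 vitamin D cells, the share was lower with vitamin D than in UV, as in the class. Within cluster 17, the only myeloid cluster with at least 50 cells in each library, the medians had the opposite signs, at −0.28 and 0.16, against 0.26 and −0.17 for all genes.

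Against these changing group medians, a few members kept the same direction nearly everywhere. For UV against control, 78 members had at least 50 counts in all 9 classes compared. Rpl15 was higher in all 9, with log2 ratios from 0.46 to 1.01, and Rpl22l1 was higher in all 9, from 0.69 to 1.38. Rpl10, Rpl35, Rpl35a, Rpl36, Rpl41, Rps25 and Rps6 were also positive in all 9, and Rpl30 and Rpl36al were negative in all 9. Rpl36al ranged from −0.80 to −0.23. Rpl23a was positive in all 7 classes with enough counts, from 0.69 to 1.32. The classes share a library and its preparation, so they are not replicates of one another. No share of all genes with the same sign in every class is given, here or for the vitamin D comparisons below. Whether the members exceed such a background therefore cannot be told.

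For vitamin D against UV, Rpl22l1 (−0.76 to −0.12) and Rpl41 (−0.76 to −0.13) were negative in all 8 classes, and Rpl36al (0.11 to 0.70) was positive in all 8. Rps27rt was negative in all 7 classes where it could be compared, from −1.28 to −0.19. For vitamin D against control, Rpl15 ranged from 0.55 to 0.91 over 8 classes, and Rps27rt was negative in all 5 classes with enough counts, from −1.34 to −0.59. Over all 40 contrasts of libraries or layers computed, which share libraries, Rpl15 lay more than 0.5 from the member median in 21, and Rpl22l1 in 21 of 39. Rpl23a did so in 16 of 32, Rps27rt in 16 of 34, Rpl36al in 15 and Rps6 in 12.

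**Figure D4:**
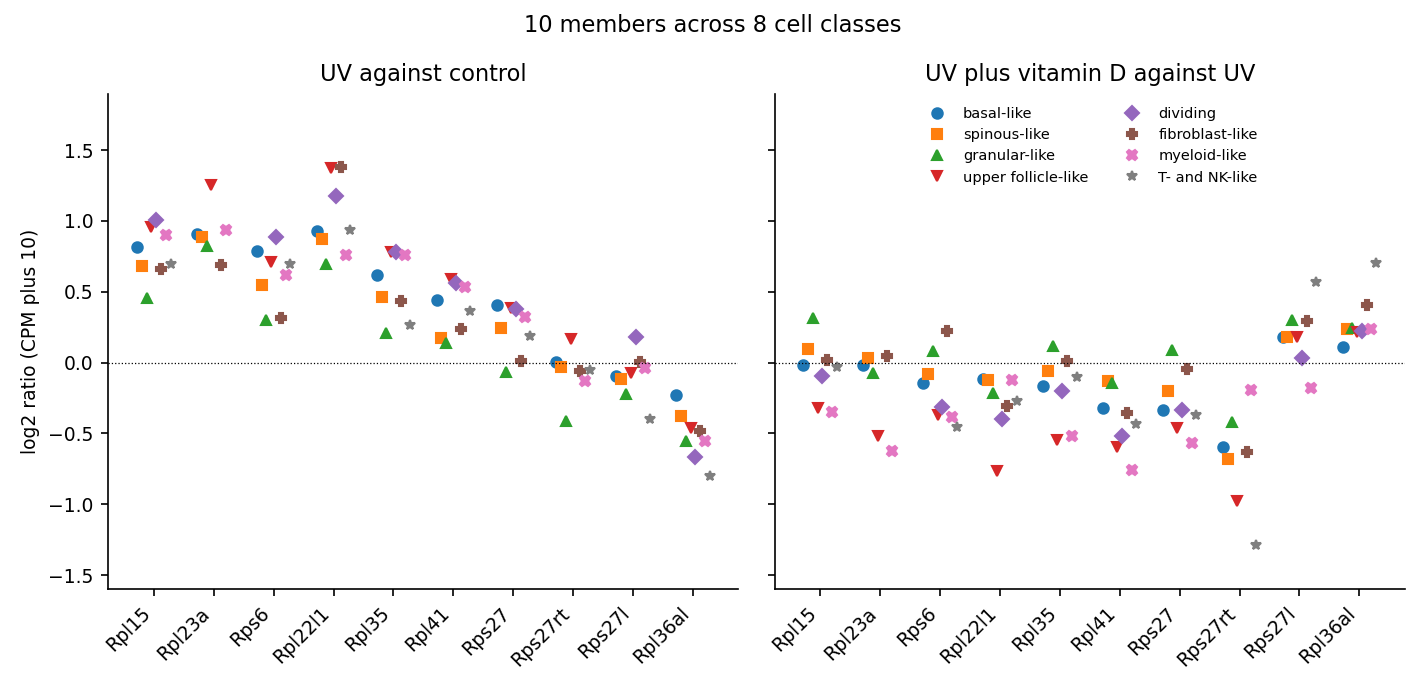
Log2 ratio of CPM plus 10 for 10 members in 8 cell classes, with a panel for irradiation and a panel for vitamin D in irradiated skin. Rpl15 and Rpl22l1 are above 0 in every class for UV against control, and Rpl22l1 and Rpl41 are below 0 in every class for UV plus vitamin D against UV.

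The levels behind these ratios differed widely between classes. Rpl15 had 522, 926 and 917 CPM in basal-like cells of control, UV and UV plus vitamin D. It had 235, 327 and 409.8 CPM in granular-like cells, 299, 479 and 486 CPM in fibroblast-like cells, and 183, 350.1 and 272 CPM in the myeloid class. In each class control was the lowest. Rpl22l1 had 117, 232 and 213 CPM in basal-like cells, 46.8, 81.9 and 69.3 CPM in granular-like cells, and 60.0, 173 and 138 CPM in fibroblast-like cells, where UV was 2.87-fold [2.21, 3.79] higher than control. In each of these 3 classes UV was the highest and control the lowest. Hair matrix-like cells of the UV library had the highest levels of these genes named here, with 495 CPM of Rpl22l1, 1305 CPM of Rpl15 and 8108 CPM of Rpl41.

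In fibroblast-like cells the 2 lowest ratios of UV against control were those of Rpl14, a large-subunit protein, with 1537 and 1092 CPM, and Rpl36al, with 97.9 and 67.2 CPM. The 2 highest were those of Rpl22l1 and Rpl39l. In the myeloid class the 2 highest were Rpl13a, with 14.9 and 39.1 CPM, and Rpl23a, with 8.14 and 24.8 CPM. These rest on few counts in control, 11 for Rpl13a and 6 for Rpl23a. The 2 lowest there were Rpl36al, with 122 and 80.0 CPM, and Rps19bp1, with 35.3 and 28.8 CPM.

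Rpl39l, the paralogue of the exit-tunnel protein Rpl39 best known from the testis, had its counts mostly outside keratinocytes. It had 30, 315 and 38 counts in whole libraries and 3, 9 and 0 in keratinocytes. After each cell was thinned to 3000 counts, it was detected in 0.146%, 1.61% and 0.290% of cells (unthinned 0.231%, 2.55% and 0.468%). Among keratinocytes the thinned shares were 0%, 0.138% and 0%, where a count of 0 allows up to 0.0360% in control and 0.0520% with vitamin D. In fibroblast-like cells the thinned shares were 6.28% [3.29, 10.7], 12.2% [9.05, 15.9] and 8.29% [4.81, 13.1], which is above the keratinocyte share in each library. These intervals overlap between the libraries.

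A cluster without a name, with 184 UV cells and 20 and 18 in the others, held 159 of the 315 UV counts of Rpl39l. Its level was 102 CPM, and 15.8% [10.8, 21.8] of its thinned cells had a count. The leading genes of that cluster were Crabp1, Mgp, Csf3, Fabp4, Selp and Sele. Fibroblast-like cluster 21 had 30.5, 76.7 and 32.1 CPM of Rpl39l, and cluster 14 had 19.9, 24.98 and 28.5 CPM. The UV counts of Rpl39l therefore lay mostly in clusters that held few cells in the other libraries. Within cluster 21 its level was also highest in UV. The part of cell numbers in the UV excess was not tested. Rpl3l, the striated-muscle paralogue of Rpl3, had 2, 13 and 1 counts, and 8 of the 13 UV counts lay in 1 cell.

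The remaining copies were low in all libraries. In keratinocytes Rps4l had 26.9, 32.2 and 34.9 CPM, Rpl37rt 43.7, 43.5 and 35.8 CPM, and Rpl32l 5.81, 6.20 and 3.45 CPM. Rps3a3 had 1.40, 1.74 and 1.06 CPM. Rpl32l and Rpl37rt were lowest with vitamin D, as was Rps27rt. These genes are copies of other members, so how reads shared with the parent were counted could change their levels.

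The genes that assemble the ribosome did not share the members' even result. Of 42 ribosome biogenesis genes, 31 were at least 20% lower and 0 higher in UV than in control keratinocytes, against the 8.56% and 6.99% of all genes given above, with a median log2 ratio of −0.45. Without the stressed-like cluster 26 were lower and the median was −0.38. With vitamin D, 16 were higher and 0 lower than in UV, against 3.4% and 4.74% of all genes, with a median of 0.30. Without the stressed-like cluster 12 were higher. Compared with control 9 were lower, against 4.8% of all genes, with a median of −0.17. Ncl, the nucleolar protein nucleolin, had 516, 257 and 312 CPM in control, UV and UV plus vitamin D. Nop56, a core protein of the particle that methylates ribosomal RNA, had 54.9, 24.2 and 33.2 CPM, Nolc1 82.7, 39.5 and 56.2 CPM, and Gnl3 123, 67.2 and 95.4 CPM. For all 4 the vitamin D level lay between those of UV and control.

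The biogenesis list was lower in UV in both outer and inner layers. Its median for UV against control was −0.23 in basal-like cells, where the members' median was 0.16, and −0.42 in granular-like cells. In fibroblast-like cells the medians were −0.16 for UV against control and 0.48 for vitamin D against UV. In upper follicle-like cells they were −0.21 and −0.01. Across layers the list was lower where the members were: granular-like against basal-like medians were −1.33, −1.64 and −1.48 in control, UV and UV plus vitamin D. In these libraries 37 of 40, 26 of 29 and 37 of 39 genes were at least 20% lower. Of all genes tested, 46.8%, 42.7% and 43.7% were.

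**Figure D5:**
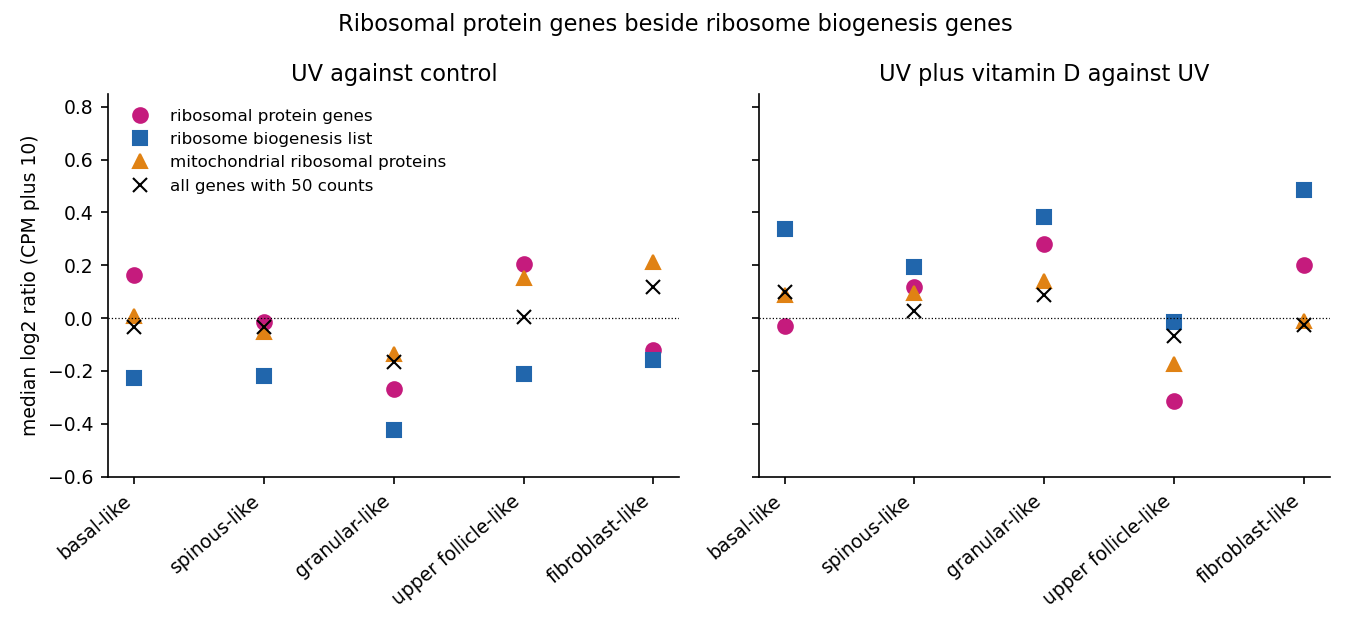
Median log2 ratio of CPM plus 10 for the members, the ribosome biogenesis list, the mitochondrial ribosomal proteins and all genes in 5 cell classes. One panel is for UV against control and the other for UV plus vitamin D against UV. In basal-like cells the members are at 0.16 and the biogenesis list at −0.23 for UV against control.

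Translation factors and other messages known to carry a TOP tract, 21 genes in all, followed the members more closely. Their keratinocyte medians were −0.05, 0.01 and −0.08 for UV against control, vitamin D against UV and vitamin D against control. For UV against control 2 were at least 25% higher and 2 lower, against 6.99% and 8.56% of all genes. The elongation factor Eef1a1 had 661, 933 and 856 CPM and Tpt1 1008, 1286 and 1141 CPM, whereas the poly(A)-binding protein gene Pabpc1 had 1299, 988 and 1021 CPM and the nucleolar Npm1 844, 557 and 605 CPM. The UV against control median of the list was 0.14 in basal-like and −0.22 in granular-like cells. All 20 genes tested were at least 20% lower in granular-like than in basal-like cells in each library. Of all genes, 46.8%, 42.7% and 43.7% were lower in control, UV and UV plus vitamin D.

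Translation initiation factors (20 genes) had keratinocyte medians of −0.21, 0.11 and −0.10, with 5, 0 and 0 genes at least 20% lower and 0, 1 and 1 higher. The shares of all genes past these limits in keratinocytes are those given above. Regulators of ribosome production (21 genes), among them Myc, had medians of −0.13, 0.10 and 0.01. Myc, which drives ribosomal gene transcription, had 58.1, 65.8 and 85.2 CPM. Mitochondrial ribosomal proteins, which build a separate ribosome, had medians of −0.06, 0.05 and 0.01 over 77, 76 and 77 genes, with 4 higher and 5 lower for UV against control. Their granular-like against basal-like medians were −0.25, −0.25 and −0.32, far smaller than those of the cytosolic members. All genes had −0.23, −0.09 and −0.18, so the control value was close to that of all genes. The part of the added 10 CPM in the gap to the cytosolic members was not tested.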

How the data were processed

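Whole skin of C57BL/6 mice aged 9 weeks was profiled with the Singleron GEXSCOPE single-cell kit, per the labels' protocols, in 3 groups of 1 library. The authors deposited 1 matrix of whole-number counts per gene and cell for each library. FastQC, fastp, STAR, featureCounts and build GRCh38 are named in the submitters' processing notes, with no versions used here. The symbols in the files are those of mouse genes. No label or file header says if the counts are of molecules or of reads. Gene positions and overlaps come from GENCODE M21 and sequences from RefSeq on GRCm38.p6, which are not the authors' build.

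Cells with at least 200 genes and at most 20% mitochondrial counts were kept, and cells kept held 79450666, 50610389 and 69126823 counts in control, UV and UV plus vitamin D. No doublet caller was run, so doublets remain. Counts were scaled to 10000 per cell, and 2000 variable genes without the members, mitochondrial genes or ribosomal RNA genes gave 30 principal components, 15 neighbours and Leiden clusters at resolution 1 (scanpy 1.11.5, igraph 0.11.9). A cluster was named from marker lists when at least 3 markers were detected in 25% of its cells. A marker also had to be among its 10 leading genes, or 6 markers had to be detected. The 10% detection needed for a leading gene, the 25% and 6-marker limits and the rule that leaves a keratinocyte cluster without a layer were set after the data were seen. Names rebuilt in this way may differ from the submitters'.

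Counts were summed over cells of a class and library, scaled to CPM, and compared as log2 ratios of CPM plus 10 (Python 3.11.15, NumPy 2.4.6, SciPy 1.17.1, matplotlib 3.10.9). A gene was compared if the higher group had at least 50 counts, and counted as higher at 25% above or as lower at 20% below, which is the same fold on that scale. Folds printed are plain CPM ratios with exact conditional intervals, and shares of cells have Clopper-Pearson intervals. The floor for an absent gene was 3 counts. Alternatives were other cell filters, denominators, scalings, pseudocounts, folds, clusterings and class mixes. The code was tested on simulated data. The members and lists were chosen with earlier results of these data known.

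Named members were the 8 most abundant, the 5 highest and 5 lowest in keratinocytes for each comparison, and the 5 highest and 5 lowest for granular-like against basal-like cells. The 2 highest and 2 lowest in fibroblast-like and myeloid cells, all paralogues, and members more than 0.5 from the member median followed. Fau and up to 4 genes of each list with the largest ratios in keratinocytes were named outside the members. Rpl3, Rpl8, Rps3a1 and other members named within a layer, and Myc, were chosen after their values were seen. Some genes that this rule would name are not reported here.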

Additional observations from a re-analysis of the deposited data

Results flagged for a closer look

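The members' share of counts in UV minus that in control was 1.97 percentage points in basal-like keratinocytes and −1.21 percentage points in granular-like keratinocytes. The pair is listed because the same contrast had opposite signs in the layers. With 1 library in each group the difference between the layers was not tested. The basal-like class held 1094 control and 322 UV cells, and the granular-like class 536 and 293.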

How the results depend on the processing

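No paired analysis was possible because each group has 1 library. Leaving out the stressed-like cluster, ratios within single clusters, and scaling the lists without the 50 most abundant other genes, were chosen after seeing the data. Among the shares, medians, counts and list summaries that answer a comparison, 97 values moved beyond counting error, or by over 1.5 times for a count, and 230 did not. Medians close to 0 changed sign in 3 cases: that of UV against control when scaled to the members, and that of vitamin D against UV, which was −0.010 without the 5% of cells with the highest totals and −0.013 without the 50 most abundant other genes. Values are in the order control, UV and UV plus vitamin D, or for ratios UV against control, vitamin D against UV and vitamin D against control, unless named. The cause of the shifts was not tested, except where the denominator or the cells left out define them.

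The members' share of each library was 12.9%, 12.4% and 12.3% in cells of at least 3500 counts, 13.1%, 12.7% and 12.4% without the 5% of cells with the highest totals, and 13.7%, 13.0% and 13.1% as a mean over cells. It was 15.1%, 14.3% and 13.6% without mitochondrial and ribosomal RNA genes in the total, 20.2%, 18.6% and 18.8% without the 50 most abundant other genes, and 13.0%, 12.4% and 12.3% without cells carrying markers of another lineage. UV was 12.4% at no more than 10% mitochondrial counts and 12.2% without the stressed-like cluster. With classes weighted as in control, UV was 12.3% and UV plus vitamin D 12.9%, so that the vitamin D library then lay above UV.

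The granular-like share as a percent of the basal-like share was 45.1%, 35.8% and 41.8% at Leiden resolution 2, 44.1%, 33.9% and 40.5% when the members entered the clustering, and 44.2%, 41.2% and 45.1% with cells assigned singly by their markers. It was 45.4%, 34.1% and 40.7% as a mean over cells, 39.5%, 28.5% and 37.9% without mitochondrial and ribosomal RNA genes, and 48.2%, 35.8% and 47.0% without the 50 most abundant other genes. It was 44.9%, 35.4% and 40.9% without the cells of highest totals. Control was 47.3% and UV 35.1% in cells of at least 3500 counts, and UV was 34.5% without cells of another lineage. The Krt1 and Krt10 bins gave 83.7%, 69.3% and 74.9%. The median granular-like against basal-like ratio in control was −1.22 at resolution 2, −1.24 with the members clustered, −1.22 with cells assigned singly and −1.23 without the highest totals. UV was −1.34 with cells assigned singly, and UV plus vitamin D was −1.18 without the 50 most abundant other genes.

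In keratinocytes, a 1.1-fold limit gave 18, 8 and 10 higher and 34, 18 and 28 lower members, and a 1.5-fold limit gave 3 and 2 higher for UV and vitamin D against control, and 0, 1 and 1 lower. A pseudocount of 1 gave 1 higher and 7 lower for vitamin D against UV and 4 lower against control. Scaling to the members' own total gave medians of 0.0057 for UV and −0.020 for vitamin D against control, 2 higher and 7 lower for vitamin D against UV, and 7 higher and 4 lower against control. With layers weighted as in control, vitamin D had medians of 0.081 against UV and −0.018 against control, with 1 lower against UV. Without paralogues 1, 2 and 0 members were lower. Without the stressed-like cluster 1 was lower for vitamin D against UV. Members apart from the median numbered 3 for vitamin D against UV at a pseudocount of 1, and 0, 0 and 0 at a width of 1.0. No shares of all genes are given for these alternatives. Whether the member counts differ from such a background therefore cannot be told.

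The biogenesis medians were −0.62 for UV against control and 0.41 for vitamin D against UV at a pseudocount of 1, and 0.22 for vitamin D against UV without the stressed-like cluster. Unthinned, Rpl39l was found in 2.55% of UV and 0.468% of vitamin D cells. The small-subunit share was 45.6%, 45.4% and 45.2% without the highest totals, and 45.6%, 45.4% and 45.3% without the most abundant member of each subunit. Depth limits the low members: Rpl24, Rpl39l, Rpl3l, Rps3a3, Rpl6l and Rpl32l had too few counts for the granular-like against basal-like comparison.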
